A study of Drosophila melanogaster with 4 samples.

Results

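The cytochrome P450 genes of the Drosophila melanogaster head are described here by clan and by role in steroid, fatty acid and hydrocarbon metabolism. Members are the genes with reads whose symbol has the Cyp form, together with the ecdysone genes phantom, disembodied, shadow, shade, spook and spookier (phm, dib, sad, shd, spo and spok). Cyp4d21 and genes of chromosome 4 were left out. The rule gave 85 genes of the 15282 with reads. The annotation spells phm as phtm (FBgn0004959), and that spelling is used below. A further 4 genes with such symbols had no reads and are not members.

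Cytochrome P450s are haem enzymes that insert oxygen into small lipophilic molecules, with electrons passed on from a reductase or, in mitochondria, from a ferredoxin. Insect P450s fall into a CYP2, a mitochondrial, a CYP3 and a CYP4 clan. The CYP2 and mitochondrial clans hold the enzymes of ecdysone synthesis, the CYP3 clan holds many enzymes that act on plant toxins and insecticides, and the CYP4 clan holds fatty acid hydroxylases and the enzyme that makes cuticular hydrocarbons.

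Poly-A RNA of pooled adult heads at day 30 was compared between 2 lamin-B overexpression samples and 2 control sibling samples. The overexpression flies were Hsp70-Gal4/+; +/UAS-LamB.GFP, in which a heat shock promoter drives the yeast activator Gal4 and Gal4 drives GFP-tagged lamin B. The control siblings were +/+; +/UAS-LamB.GFP, so every fly carried the transgene, and no group carried the driver alone. What the driver did by itself and what lamin B did cannot be told apart. Whether samples of a group were separate cultures is not labelled, so the p-values cover the spread among these samples alone, possibly a technical one.

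Each gene has a mean normalized count over the 4 libraries, a log2 fold change (overexpression over control, shrunken towards 0 by the fit), a standard error and an adjusted p-value, all from the authors' deposited table. The threshold for a call was an adjusted p under 0.05. That table has no column per library. Whole reads per library were recovered from its values for 64 of the 85 members, and the 21 others, with means of at least 1075, have no value per library. Libraries are named a and b within each group. Control library a had the smallest size factor, 0.73, against 1.09 to 1.15 for the others. Lam, the overexpressed gene, was higher by 1.04 (standard error 0.0801, adjusted p-value 6.76e-36) in the authors' deposited table. The head label fits the markers, with ninaE, the main rhodopsin, at a mean normalized count of 1176378 and the neuronal gene nSyb at 41834.

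Few P450 genes differed. By the DESeq2 Wald test in the authors' deposited table, 6 of 79 tested members were called (7.59%), beside 1027 of 11757 tested genes (8.74%). Cyp4g1, Cyp312a1 and Cyp6a18 rose, against a background of 5.66% of genes called higher. Cyp4e3, Cyp4aa1 and Cyp28d1 fell, against a background of 3.07% called lower. The share of members called is near the background. The median log2 fold change was 0.00 over tested members and 0.01 over all tested genes, and 40 tested members were above 0 and 39 below. An unadjusted p under 0.05 was held by 15 members and by 2359 tested genes. The remaining 6 members, spo, spok, dib, Cyp313a2, Cyp313a3 and Cyp12d1-d, have no adjusted p there and means of at most 4.37.

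**Figure D1:**
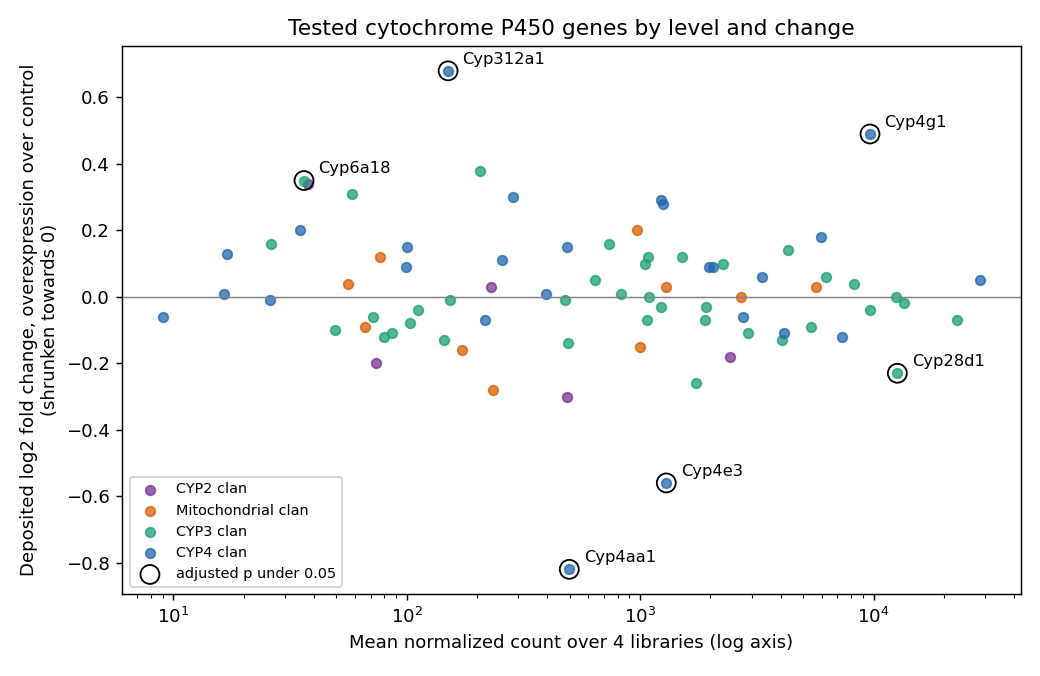
Deposited log2 fold change (y axis, overexpression over control, shrunken towards 0) against the mean normalized count over 4 libraries (x axis, log scale) for the 79 tested P450 genes, coloured by clan. Rings mark the 6 genes called at an adjusted p under 0.05. Of these 4 belong to the CYP4 clan, out of its 26 tested members (15.4%, beside 8.74% of all tested genes).

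Mean normalized counts ran from 0.226 (spo) to 28486 (Cyp313a1) in the authors' deposited table. Compared per kb of the longest annotated transcript, the median level was 535.7 normalized counts per kb in the CYP3 clan, 241.0 in the CYP4 clan, 59.5 in the mitochondrial clan and 26.5 in the CYP2 clan. Over members with a mean of at least 100 the medians were 775.9, 768.8, 615.3 and 158.8, so the CYP3, CYP4 and mitochondrial medians lie closer together without the members of few reads. The CYP3 clan had 38 members and 58.1% of the members' summed mean counts, and the CYP4 clan had 28 members and 34.5%. The highest level per kb was that of Cyp313a1, at 17551, and the next was that of Cyp6g1, an enzyme known for DDT resistance, at 11019. The 5 members with the highest mean counts held 43.1% of the members' sum. Mean counts under 10 were seen in 7 members.

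**Figure D2:**
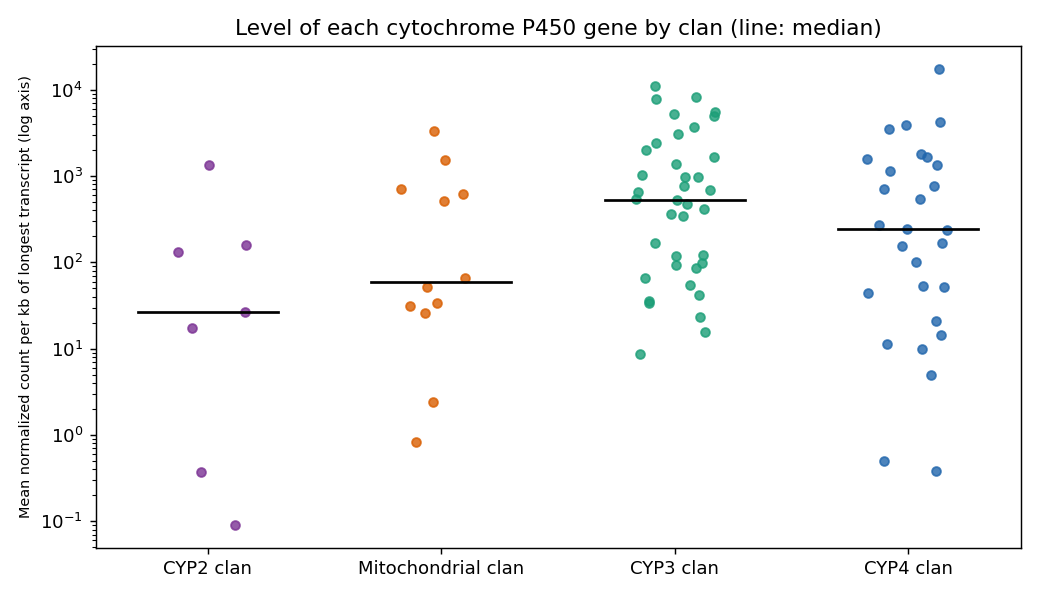
Mean normalized count per kb of the longest transcript (y axis, log scale) for each of the 85 P450 genes, grouped by clan, with the median as a line. The CYP3 clan has the highest median, 535.7, and the CYP2 clan the lowest, 26.5, while over members with a mean of at least 100 the CYP3 and CYP4 medians are close, 775.9 and 768.8.

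The ecdysone P450s act in sequence. In textbook order spo or spok work at an early step, phm, dib and sad hydroxylate the sterol in turn, and shd converts ecdysone to the active hormone in target tissues. Cyp18a1 inactivates the hormone, and Cyp6t3 is needed for its synthesis in the larval prothoracic gland. Of the 5 tested genes 0 were called by the Wald test that the authors' deposited table holds, and 2 of them, phtm and Cyp18a1, had an unadjusted p under 0.05. Over all 11757 tested genes 8.74% were called and 2359 had such a p, so a count of 0 among 5 does not set the list apart. The median log2 fold change of the tested genes was 0.04.

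Reads of spo, spok and dib were almost absent. spo had 1 and 0 reads in the overexpression libraries against 0 in both controls, spok had 1 and 2 reads against 0 and 0, and dib had 0 and 6 reads against 1 and 0. Such counts allow no comparison. phtm had 60 and 77 reads in the overexpression libraries against 14 and 12 in the controls. Its groups did not overlap, at 54.3 and 67.2 normalized reads against 19.2 and 11. Of tested genes with a mean up to 100, 48.4% were higher without overlap. For phtm the ratio was 4.26 (exact 95% binomial interval 2.79 to 6.75, counting error only). The authors' deposited table gives phtm a log2 fold change of 0.34 (standard error 0.125, adjusted p-value 0.0651). The gene was not called.

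The later genes sad and shd were not called. sad had 61 and 72 reads in the overexpression libraries against 30 and 70 in the controls, and shd had 77 and 123 against 40 and 83. After scaling by library size both pairs of groups overlapped. The authors' deposited table gives sad 0.04 (standard error 0.139, adjusted p-value 0.951) and shd 0.12 (standard error 0.145, adjusted p-value 0.778). Cyp18a1, the inactivating enzyme, had the most reads of the list, 410 and 517 against 432 and 568. Its normalized reads were 371.2 and 451.5 in the overexpression libraries against 592.2 and 521.4 in the controls, without overlap. The log2 fold change of Cyp18a1 was -0.30 (standard error 0.147, adjusted p-value 0.215) in the authors' deposited table, and it was not called. Cyp6t3 had 124 and 120 reads against 94 and 112, with overlapping normalized values. On X, phtm and Cyp18a1 are neighbours, and their deposited log2 fold changes had opposite signs.

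**Figure D3:**
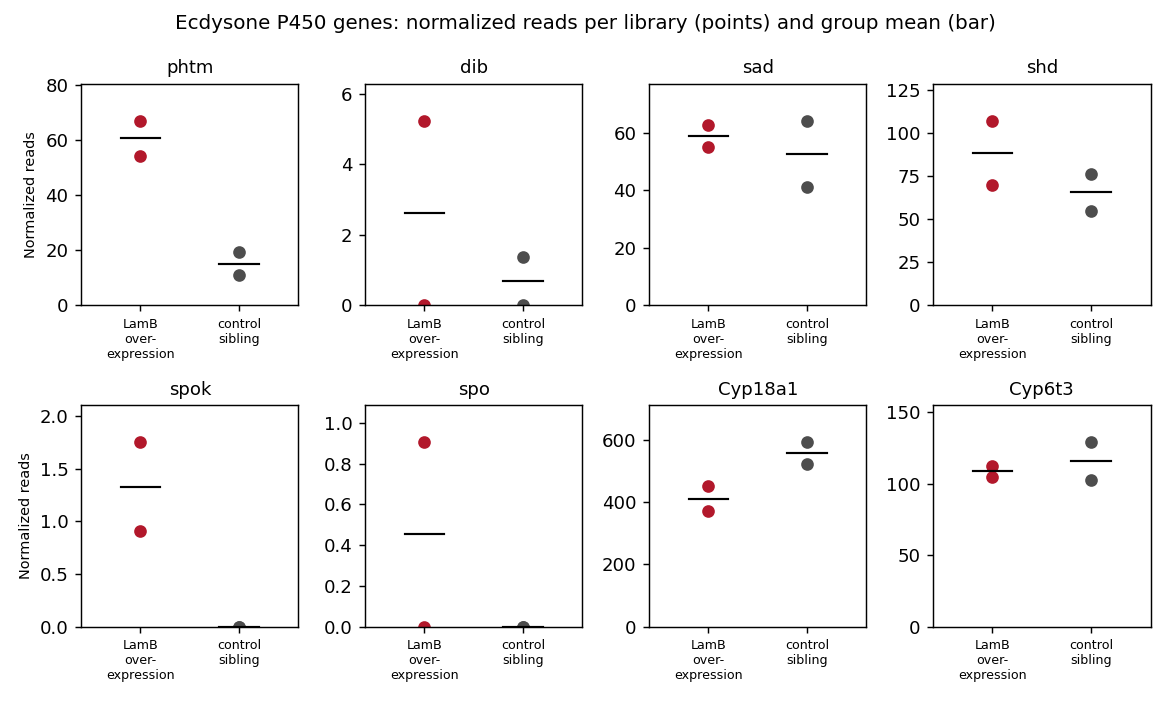
Normalized reads per library (y axis, each from 0) for the 8 ecdysone P450 genes in lamin-B overexpression and control sibling heads, with points for the 2 libraries and a bar for their mean. The 2 overexpression points of phtm, 54.3 and 67.2, lie above both control points, while the points of sad, shd and Cyp6t3 overlap between groups. Of tested genes with a mean up to 100, 48.4% were higher without overlap.

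Of 23 tested ecdysone partners, which include the receptor EcR with its partner usp and the early response genes, 1 was called (4.35%, beside 8.74% of all tested genes). ImpL2, a secreted insulin-binding protein first found as an ecdysone-induced gene, had 3073 and 3002 reads in the overexpression libraries against 1330 and 1916 in the controls. It rose by 0.55 (standard error 0.0877, adjusted p-value 5.17e-08) in the authors' deposited table. The other 22, Cyp18a1 among them, were not called. Of the 23, 17 had a log2 fold change below 0, with a median of -0.09, beside 5629 of all 11757 tested genes below 0 and a median of 0.01. EcR stood at -0.27 (standard error 0.102, adjusted p-value 0.0756) in the authors' deposited table.

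Cyp4g1 makes the hydrocarbons of the cuticle by removing the terminal carbon of long-chain aldehydes, and is known as a marker of oenocytes. It lies on X from 467057 to 469335 on the minus strand (BDGP6). Cyp4g1 had a mean normalized count of 9655 in the authors' deposited table. No reads per library were recovered, and the group levels implied by the mean and the fold change were 11552 in overexpression and 7758 in control. These levels assume alike replicates, which could not be checked for this gene. It rose by 0.49 (standard error 0.114, adjusted p-value 0.000637) in the authors' deposited table. Cyp9f2, at a mean of 9629, had a smaller standard error there, 0.0573. With the shrinkage undone the log2 fold change of Cyp4g1 was 0.57 (standard error 0.133). Its relative Cyp4g15, known from the nervous system, had a mean of 4136 and a log2 fold change of -0.11 (standard error 0.118, adjusted p-value 0.729) in the authors' deposited table. The difference between the 2 genes was not tested.

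Cyp4g1 was 1 of 7 called genes among 17 tested in the hydrocarbon list, all 7 of them higher (41.2%, beside 8.74% of all genes). The list was chosen with earlier results of these data known. FASN2, a fatty acid synthase, rose by 1.45 (standard error 0.159, adjusted p-value 1.94e-17) in the authors' deposited table. Desat1, the main acyl-CoA desaturase, had a mean of 135910 and rose by 0.23 (standard error 0.0409, adjusted p-value 1.04e-06) there. The P450 reductase Cpr, which gives Cyp4g1 and the other microsomal P450s their electrons, rose by 0.21 (standard error 0.0533, adjusted p-value 0.00272) there.

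Genes of predicted fatty acid elongases made up the rest of the called hydrocarbon list. CG30008 had 866 and 366 reads in the overexpression libraries against 16 and 13 in the controls. CG9458 had 116 and 56 reads against 1 and 0, and CG18609 had 112 and 66 against 12 and 16. Their groups did not overlap, which with overexpression higher held for 48.4% of tested genes with a mean up to 100. Overexpression library a was the highest of the 4 libraries for each of the 3 elongase genes. Testis and accessory gland markers had the same order, with summed normalized reads of 1557 and 441.8 against 35.6 and 8.26, and their part in the hydrocarbon list was not tested. The authors' deposited table gives log2 fold changes of 1.11 for CG30008 (adjusted p-value 1.14e-11), 0.43 for CG9458 (adjusted p-value 0.00242) and 0.42 for CG18609 (adjusted p-value 0.0174). The elongase bond was not called (-0.22, standard error 0.102, adjusted p-value 0.2) in the authors' deposited table, and eloF, a female-biased elongase, is listed at 0.

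**Figure D4:**
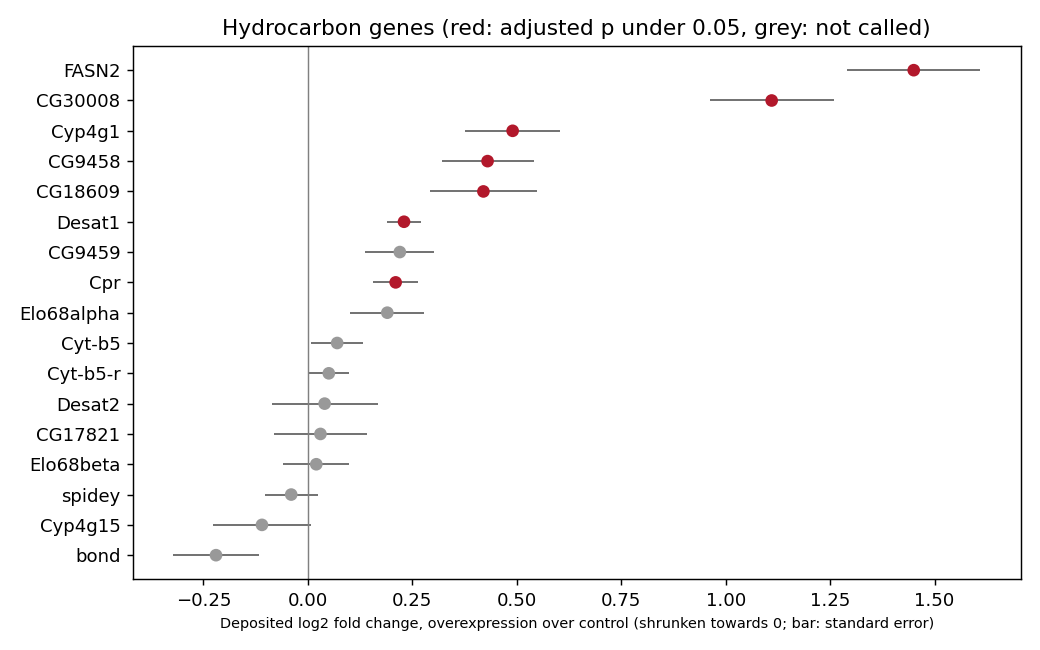
Deposited log2 fold change with its standard error (x axis, overexpression over control, shrunken towards 0) for the 17 tested genes of the hydrocarbon list. The 7 called genes, in red, lie between 0.21 (Cpr) and 1.45 (FASN2), and the lowest value is that of bond, -0.22.

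Among the other electron donors, the cytochrome b5 family gene CG6870 had 957 and 1048 reads in the overexpression libraries against 2259 and 3126 in the controls. It fell by 1.57 (standard error 0.0961, adjusted p-value 6.31e-57) in the authors' deposited table. Cyt-b5, Cyt-b5-r and CG3566 were not called. The mitochondrial donors dare, Fdx1 and Fdx2, which serve the mitochondrial P450s, were not called either, with log2 fold changes between -0.06 and -0.01 in the authors' deposited table.

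Family 4 is known for fatty acid omega-hydroxylases, and also holds Cyp4g1, which acts on aldehydes instead. Of its 19 tested members 1 was called higher, Cyp4g1, and 2 lower, beside 5.66% and 3.07% of all tested genes. Their median log2 fold change was 0.09, beside 0.01 over all tested genes. Cyp4e3 lies on 2L from 9747839 to 9750071. It had 1113 and 1171 reads in the overexpression libraries against 1144 and 1718 in the controls, or 1008 and 1023 normalized reads against 1568 and 1577. The 2 libraries of each group were close and the groups did not overlap. Cyp4e3 fell by 0.56 (standard error 0.1, adjusted p-value 1.44e-06) in the authors' deposited table, and the ratio of reads was 0.645 (exact 95% interval 0.61 to 0.682).

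Cyp4aa1 lies on 2R from 15942864 to 15947266. It had 376 and 317 reads in the overexpression libraries against 481 and 775 in the controls, or 340.4 and 276.8 normalized reads against 659.4 and 711.4. The groups did not overlap. It fell by 0.82 (standard error 0.145, adjusted p-value 1.44e-06) in the authors' deposited table, the lowest fold change among tested members, and the ratio of reads was 0.446 (exact 95% interval 0.406 to 0.49). Cyp4e1 and Cyp4e2, of the subfamily of Cyp4e3, were not called, at 0.15 (standard error 0.15) and -0.12 (standard error 0.0622) in the authors' deposited table.

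Just short of the threshold stood Cyp4d8 and Cyp4s3. Cyp4d8 had 1324 and 1400 normalized reads in the overexpression libraries against 1108 and 1061, and Cyp4s3 had 1317 and 1487 against 1109 and 1122. The groups did not overlap for either gene. The authors' deposited table gives Cyp4d8 0.29 (standard error 0.106, adjusted p-value 0.0635) and Cyp4s3 0.28 (standard error 0.111, adjusted p-value 0.0925).

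**Figure D5:**
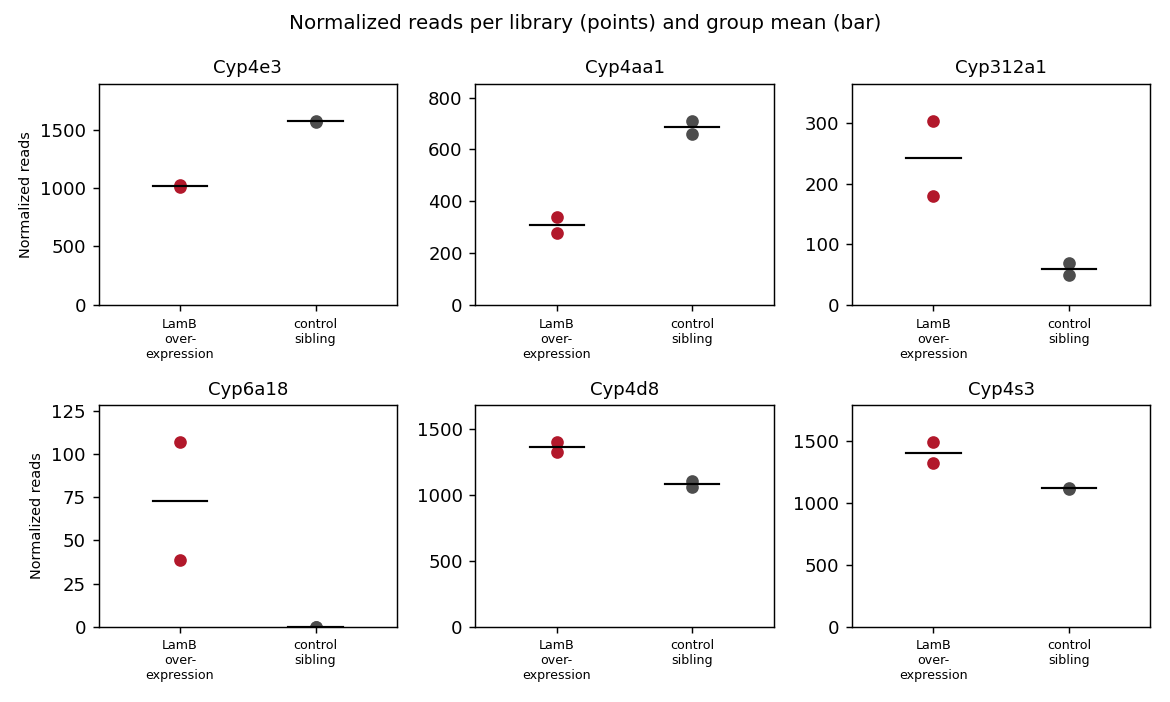
Normalized reads per library (y axis, each from 0) for Cyp4e3, Cyp4aa1, Cyp312a1 and Cyp6a18, which were called, and for Cyp4d8 and Cyp4s3, which were not, with points for the 2 libraries of a group and a bar for their mean. The groups do not overlap in any of the 6 panels, and overexpression libraries lie lower for Cyp4e3 and Cyp4aa1. The 6 genes were picked by their test values. Among all 64 members with recovered reads, groups did not overlap in 20 that were higher and 17 that were lower. Of tested genes with a mean up to 100, 48.4% were higher without overlap and 11.4% lower. No such share was computed above that mean.

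Outside family 4, Cyp312a1 of the CYP4 clan lies on 3L from 18128940 to 18132689. It had 336 and 205 reads in the overexpression libraries against 51 and 53 in the controls, without overlap. Cyp312a1 rose by 0.68 (standard error 0.153, adjusted p-value 0.000367) in the authors' deposited table, and the ratio of reads was 4.21 (exact 95% interval 3.4 to 5.24). Cyp313a1, the P450 with the highest level, was not called (0.05, standard error 0.0435, adjusted p-value 0.648) in the authors' deposited table.

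In the CYP3 clan 2 of 38 members were called (5.26%, beside 8.74% of all tested genes). Cyp6a18, on 3R from 27478675 to 27482904, had 118 and 44 reads in the overexpression libraries against 0 in both controls. With a floor of 3 reads put in for both controls together, the ratio was 43.7. The exact 95% lower limit of the ratio, from the reads without the floor, was 35.1 (counting error only). Against the floor the ratio was 23.3 without overexpression library a and 64.8 without overexpression library b. It was 26.1 without control library a and 17.5 without control library b. The authors' deposited table gives Cyp6a18 a log2 fold change of 0.35 (standard error 0.1, adjusted p-value 0.00978), which is shrunken.

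Cyp28d1, a gene linked to nicotine tolerance, lies on 2L from 5210460 to 5212445 and had a mean of 12644 in the authors' deposited table. Its implied group levels were 11613 in overexpression and 13675 in control, and it fell by 0.23 (standard error 0.0585, adjusted p-value 0.00271) there. Its neighbour Cyp28d2 was at -0.13 (standard error 0.16, adjusted p-value 0.8) in the authors' deposited table. The CYP3 members with higher means than Cyp28d1 were not called in that table. They were Cyp6g1 at -0.07 (standard error 0.0437, adjusted p-value 0.397) and Cyp6d5 at -0.02 (standard error 0.059, adjusted p-value 0.935). The end of Cyp6g1 overlaps that of Cyp6g2 on the other strand, and whether counting used strand is not stated.

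Most markers of organs outside the head were higher, as were Cyp312a1, Cyp6a18 and the called elongases. Of 12 testis and accessory gland markers 9 were called higher in the authors' deposited table, beside 5.66% of all tested genes, and the summed normalized reads of the 9 with recovered reads were 1557 and 441.8 in the overexpression libraries against 35.6 and 8.26 in the controls. Acp26Aa, SP, Acp62F, ProtA, ProtB and Mst84Db had 0 reads in both controls. Of 12 tested gut enzymes 7 were called higher and 1 lower, and of 8 tubule markers 4 were higher and 1 lower, with 0 reads for Uro in both controls. Over the 4 gut and 7 tubule genes with recovered reads, the sums were 2149 and 1011 against 303.0 and 388.3, and 1364 and 1002 against 557.9 and 586.6. The sums leave out the genes of highest mean, which were not higher. Amy-p (mean 11240) was at -0.19 and the tubule gene Best2 (mean 3486) at -0.28, both called lower. Amy-d (mean 13222) was at -0.00 and not called. Other gut genes left out, such as Mal-A7 (mean 233.8) at 1.34, were called higher. Overexpression library a was the highest for each of these sums, as for Cyp312a1, Cyp6a18, CG30008, CG9458 and CG18609. The part of these organs in the P450 and hydrocarbon results was not tested, and in bulk samples fewer cells of a type and less RNA per cell cannot be told apart.

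In the authors' deposited table all 5 photoreceptor and all 4 neuron markers lay below 0 on the log2 scale, beside 5629 of all 11757 tested genes. Of these markers 2 and 1 were called lower, beside 3.07% of all tested genes. The called genes were ninaE at -0.18 (adjusted p-value 0.000274), Arr2 at -0.39 (adjusted p-value 2.9e-18) and elav at -0.34 (adjusted p-value 0.00465), all in that table. Glia, also of the head's own tissues, had 3 of 5 markers below 0, 2 above and 0 called. The part of these tissues in the P450 results was not tested.

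Fat body markers moved both ways in the authors' deposited table, with Lsp2 at -0.84 (standard error 0.0984, adjusted p-value 1.88e-15) and apolpp at 0.14 (standard error 0.0396, adjusted p-value 0.00655). Of 4 tested markers of oenocytes and hydrocarbon synthesis 3 were called higher, beside 5.66% of all tested genes. All 3 also belong to the hydrocarbon list. The other tested marker, bond, was at -0.22 and not called, and eloF is listed at 0.

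In the CYP2 clan 0 of 5 tested members and in the mitochondrial clan 0 of 10 were called by the Wald test in the authors' deposited table, with 3 and 0 members at an unadjusted p under 0.05. With 8.74% of all tested genes called, these counts of 0 do not set either clan apart. Cyp305a1, the CYP2 member with the highest mean, had 2124 and 2369 normalized reads in the overexpression libraries against 2558 and 2610 in the controls, and was not called (-0.18, standard error 0.0924, adjusted p-value 0.241 in the authors' deposited table). Cyp304a1 had 245.4 and 220.9 against 196.0 and 253.4, with overlap. In the mitochondrial clan Cyp12a4, linked to insecticide resistance, Cyp12b2 and Cyp12a5 had log2 fold changes between -0.00 and 0.03 in that table. Cyp12d1-p and Cyp12d1-d are near-identical copies, so the split of their reads is uncertain.

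P450 genes often lie in tandem. Within 20 kb of another member lay 46 members, in 17 runs. The largest run, 8 genes from Cyp6a22 to Cyp317a1 on 2R (14871366 to 14903095), had log2 fold changes from -0.26 to 0.14 in the authors' deposited table, and 0 of 8 were called by its Wald test, with 1 at an unadjusted p under 0.05. Of the 3 nearest tested genes on each side of the called members, 5 of 36 were called. Both counts stand beside 8.74% of all tested genes, and nothing is read from so few genes.

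Groups of reads were also compared without a test. Of the 64 members with recovered reads, 20 were higher in both overexpression libraries than in both controls and 17 were lower. A share over all genes was computed for means up to 100 alone. Of the 19 tested members with a mean up to 100 and recovered reads, 7 were higher in both overexpression libraries than in both controls and 5 were lower. Among the 3017 tested genes with such means 48.4% were higher in this sense and 11.4% lower.

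Of the juvenile hormone list 2 of 12 were called, both higher, beside 5.66% of all tested genes called higher. Jhbp5, named as a juvenile hormone binding protein, had 1191 and 876 reads in the overexpression libraries against 87 and 133 in the controls, and rose by 1.78 (standard error 0.155, adjusted p-value 6.06e-28) in the authors' deposited table. Jhe, the esterase that degrades the hormone, had 569 and 619 reads against 241 and 318, and rose by 0.55 (standard error 0.144, adjusted p-value 0.00365) there. Of the regulators and conjugating enzymes of xenobiotic metabolism, which include cnc, Keap1 and Hr96, 0 of 13 tested were called by the Wald test in the authors' deposited table, and 0 had an unadjusted p under 0.05, beside 1027 and 2359 of all 11757 tested genes.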

How the data were processed

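RNA of pooled heads was sequenced in 2 samples per group. The submitters' processing notes list build BDGP6 and the tools DESeq2 1.22.1, DESeq, HTSeq and STAR 2.5, without their roles. For strand settings, nothing was given in the sources used here. The authors' deposited table gives, per gene, a mean signal (the mean normalized count), a log2 fold change with its error, a Wald score, and a p-value with an adjusted p-value. A second deposited table names no groups and was not used. The tables hold no counts per library, so the authors' own Wald test is the test here.

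Reads per library were recovered as whole numbers that give the deposited mean; above a mean of 100 they also had to give the deposited fold change and error, to within 2e-06 under a mean of 300 and 2e-07 above. Means over 3000 were not tried. These tolerances and the ceiling were set after the data were seen, over 6 settings; some settings with tighter margins found no reads for some genes. The shrunken negative binomial fit of the authors' deposited table was written out with a prior constant of 9.73, and it matched the deposited fold change of 2714 of 2719 genes of low mean to within 1e-05. Of 43 members tried by this step 39 had a single solution, with misfits of at most 6.4e-08. Simulated reads were used to test the code alone, which says nothing of whether recovered reads are right. Size factors, from the same means, were 1.10 and 1.15 for overexpression and 0.73 and 1.09 for control libraries. A library's side was read from the sign the table gives to genes with 1 read. For members without recovered reads, group levels assume alike replicates. On 16 members with reads they differed by at most 0.0828%. The reads of those members were mostly sought near the same levels, so this closeness does not test the assumption. Intervals are exact 95% binomial and cover counting error only, as does the floor of 3 reads over a group.

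The members, lists and tests were chosen with earlier results of these data known. Named genes are all called members, the ecdysone P450s, Cyp4g1 and Cyp4g15, the 3 highest means per clan, the 3 largest Wald scores not called and the called list genes; further genes named as neighbours, relatives or markers were chosen after their values were seen. Positions come from the Ensembl annotation of BDGP6. Python 3 libraries numpy, scipy, pandas, numba and matplotlib were used.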

Additional observations from a re-analysis of the deposited data

How the results depend on the processing

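The 6 called members numbered 6 at an adjusted p under 0.01 and with the adjustment over every gene with a p-value, and 9 under 0.1, with Cyp4d8, Cyp4s3 and phtm added. With genes of a mean of at least 100 alone 5 were called, since Cyp6a18 is below that mean. Leaving out pseudogenes changed nothing in that count. The 10 called list genes that are not members became 9 under 0.01 and 13 under 0.1. They numbered 10 with the adjustment over every gene and 8 with genes of a mean of at least 100 alone. These settings were chosen for the list genes after seeing the data. Over fold changes of named members with shrinkage undone or centred on the median of genes with a mean of at least 100, 48 kept their direction, and Cyp12b2 changed from -0.00 to 0.01 when centred; the centring itself shows the cause. Median levels per kb over members with a mean of at least 100 were 158.8 in the CYP2 clan, 615.3 in the mitochondrial clan, 775.9 in the CYP3 clan and 768.8 in the CYP4 clan, since fewer members enter. Leaving out 1 library gave ratios of 3.13 to 5.32 for Cyp312a1, 0.401 to 0.493 for Cyp4aa1 and 0.64 to 0.65 for Cyp4e3. For phtm the ratios were 3.17 to 5.53, and for Cyp6a18, against the floor of 3 reads, 17.5 to 64.8. Of 56 such ratios over 14 named members, 48 moved by less than the spread between replicates. Without size factors 9 of 14 ratios moved by more than the spread between replicates. With 0.1 times the tolerance in the recovery, 39 of 43 members had a single solution and 2 had none, with 5 times the tolerance 33 were single, and with a ceiling at a mean of 7000 39 of 51 were; the reads were the same for 37 of 37, 33 of 33 and 39 of 39 members single in both. No paired analysis was possible because the recovered libraries carry no replicate number. Count models (edgeR, DESeq2, other normalizations and filters) and the gene-wise test without 1 library were not run, as the table has no counts per library.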
